A study of Mus musculus with 8 samples.

Results

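The 40 genes described here encode the machinery that copies DNA, and they were taken from a named list of symbols, not by their values. All 40 were found among the 53657 gene symbols that could be joined across the 8 libraries, and all 40 passed the filter on low counts in every model fitted. RNA of mouse CD4+ T cells was sequenced, and the reads were counted per gene. The series title asks about RORα, a nuclear receptor encoded by Rora, and the kinase complex mTORC1 in colitis driven by T cells.

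Control cells carried floxed Rora alleles (Rora_fl/fl), and knockout cells carried the same alleles with a Cre recombinase driven by Cd4 (Cd4_cre Rora_fl/fl), which acts in all cells of the T lineage that expressed Cd4. For the colon groups, Tcrbd-/- mice received naive CD4+ T cells from donors of 1 of the genotypes. These hosts lack their own T cells but keep other immune cells. CD4+ T cells were recovered from the inflamed colon 6 weeks later, with 2 libraries per genotype. For the culture groups, naive CD4+ T cells were activated on plates coated with antibodies to CD3 and CD28 and grown for 4 days as T helper 17 (Th17) cells. They received either TGF-β and IL-6 (called the TGF-β mix below) or IL-6, IL-1β and IL-23 (the IL-23 mix), and each mix had 1 library of control and 1 of knockout cells. Every group was stimulated again, for 2 hours with PMA and ionomycin, and RNA was then taken. Whether the 2 libraries of a colon group came from separate mice is not given in the sources used here, so the p-values reflect the spread between libraries alone, and that spread may be technical.

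Replication starts where the origin recognition complex, with Cdc6 and Cdt1, loads the ring-shaped MCM helicase onto DNA, a step called licensing. In S phase the helicase is switched on by Cdc45, the GINS complex and Mcm10, primers are laid down by the polymerase α-primase complex, and polymerases δ and ε extend them with the help of the sliding clamp Pcna and its loader, replication factor C. In T cells these genes are largely silent at rest and are transcribed after antigen receptor stimulation, when E2F transcription factors are released at entry into the cell cycle.

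The libraries held 13176752 to 15922696 counts. Rora, the deleted gene, had 3104 and 4067 counts in the colon controls and 1958 and 2305 in the colon knockouts. In culture it had 7881 counts in control and 3020 in knockout with the TGF-β mix, and 2307 and 906 with the IL-23 mix. Rora RNA was thus lower in the knockout libraries but not absent, and the source of the remaining reads was not tested. All 16 markers of conventional T cells had counts in every library. Markers of other cells were also present in the colon, and more so in the knockout. The summed B and plasma cell markers made up 542 and 532 CPM in control (counts scaled to a common library total) and 2204 and 2408 in knockout. Epithelial markers, summed the same way, went from 47.4 and 43.9 to 139 and 141, fibroblast markers from 33.8 and 25.3 to 125 and 114, dendritic cell markers from 360 and 352 to 601 and 625, and macrophage markers from 50.5 and 47.6 to 79.5 and 78.5. Of 7 tested dendritic cell markers 5 were higher, among them Cd74 and the MHC class II genes, and Zbtb46 and Xcr1 were lower. The T cell markers went from 13264 and 12837 in control to 11723 and 11585 in knockout, and 13 of 16 fell, 1 rose and 2 did not pass the colon test described below. The part of these shifts in the colon results was not tested, and values with the T cell markers as the scale are given beside those results.

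The start regions of these genes were examined first, since E2F factors bind near many of them. RefSeq (build GRCm38.p6) gave windows from 250 bases before to 50 bases after the start for 32 of the 40 genes. Not matched were Gins1, Gins2, Gins4, Mcm4, Prim2, Pole, Rfc2 and Ccne2. The E2F words TTTCCCGC, TTTCGCGC, TTTGCCGC and TTTGGCGC, searched on both strands, were found in 15 of these 32 genes (46.9%). Over all 27025 genes with a window of this length the share was 2.61%. The word CCAAT, also searched on both strands, was found in 21 of 32 genes (65.6%) and in 41.1% of all genes. Among the 34 other replication genes with a window 8 held an E2F word (23.5%), and among 21 regulators of cell cycle entry 7 did (33.3%). Among 16 mitosis genes 1 did (6.25%), while CCAAT was found in 14 of the 16 (87.5%). A match to these letters is a description and not a measured site of binding.

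Stretches around the E2F words of 5 genes are shown because these genes span the steps from licensing to maintenance methylation and the words lie before the RefSeq start and outside annotated exons. Capitals mark the E2F words in either orientation, and a run of 12 capitals is a pair of words that overlap on opposite strands. All are printed 5′ to 3′ on the strand of the gene. The stretches of Mcm5, Mcm6 and Pola1 lie upstream of the gene in the GENCODE M21 annotation, and those of Cdc6 and Uhrf1 lie in an intron of a longer transcript.
Cdc6, chr11:98907987-98908046, plus strand, word 138 bases before the start: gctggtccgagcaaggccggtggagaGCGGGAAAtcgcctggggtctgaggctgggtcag
Mcm5, chr8:75109330-75109393, plus strand, words 153 bases before the start: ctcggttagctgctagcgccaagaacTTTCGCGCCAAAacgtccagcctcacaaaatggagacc
Mcm6, chr1:128359778-128359841, minus strand, words 110 bases before the start: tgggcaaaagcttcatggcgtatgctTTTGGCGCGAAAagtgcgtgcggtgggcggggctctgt
Mcm6, chr1:128359719-128359778, minus strand, word 47 bases before the start: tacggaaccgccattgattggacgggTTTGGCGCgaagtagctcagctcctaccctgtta
Pola1, chrX:93632260-93632319, minus strand, word 138 bases before the start: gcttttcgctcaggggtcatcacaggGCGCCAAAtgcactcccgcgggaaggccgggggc
Uhrf1, chr17:56304102-56304161, plus strand, word 185 bases before the start: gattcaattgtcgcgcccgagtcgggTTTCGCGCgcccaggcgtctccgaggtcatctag

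In culture, 38 of the 40 genes fell in the IL-23 mix relative to the TGF-β mix, Rfc3 rose, and Prim2 did not pass. The call was an adjusted p under 0.05 (edgeR quasi-likelihood, Benjamini-Hochberg over 13983 genes), in a model with terms for mix and genotype. Among all genes tested, 34.0% were called lower and 35.8% higher. The median log2 difference of the 40 genes was -1.59, against 0.02 for all genes. Each condition had 1 library, so the control pair and the knockout pair served as the repeats. Here and below, the share of all genes whose groups did not overlap was not counted. Here and in all bulk comparisons that follow, fewer cells that express these genes and less RNA per cell cannot be told apart.

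In sum, the 40 genes accounted for 6369 CPM (here and below with edgeR's TMM factors applied to the library totals) in the control library and 6442 in the knockout library of the TGF-β mix. With the IL-23 mix the sums were 2193 and 2179 CPM. In the control pair alone, 33 of 40 genes were at least 2-fold lower in the IL-23 mix, where 9.52% of all genes were. In the knockout pair 33 of 40 were, where 9.11% of all genes were, and in each pair 1 of the 40, Rfc3, was at least 2-fold higher. The pairs have no replicate and these ratios no test. The quartiles of the 40 log2 ratios were -1.88 and -1.20 in the control pair and -1.90 and -1.16 in the knockout pair.

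**Figure D1:**
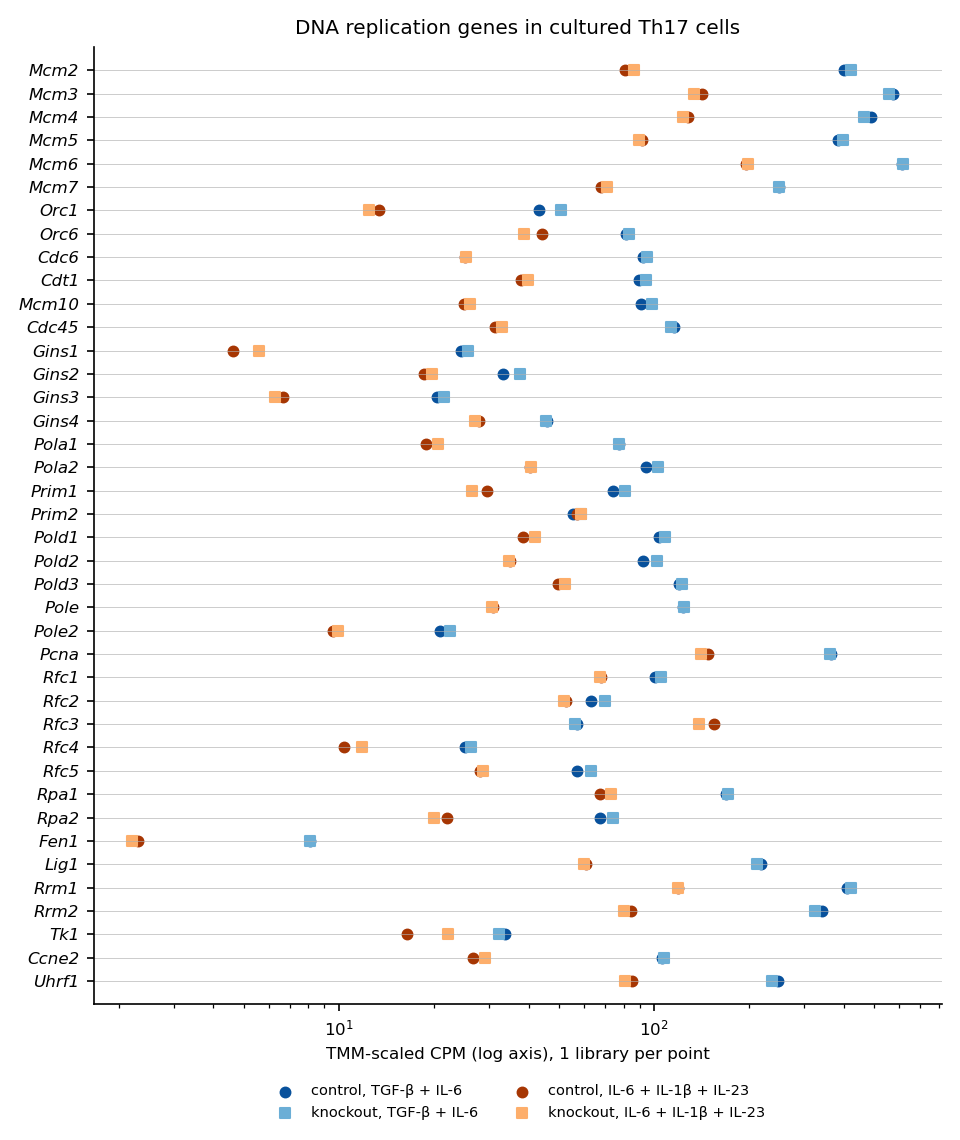
TMM-scaled CPM (log axis) of each of the 40 genes in the 4 cultured libraries, 1 point per library. The points of the TGF-β mix lie to the right of those of the IL-23 mix for all genes except Rfc3, where the order is turned, and Prim2, where all 4 libraries lie between 55.4 and 58.5 CPM.

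The 6 MCM genes, which encode the subunits of the replicative helicase, fell as a block, with a median log2 difference of -1.98 and a range of -2.29 to -1.64. Mcm2 (chromosome 6, 88883474 to 88898780 on the minus strand of mm10) measured 402 CPM in control and 420 in knockout cells of the TGF-β mix, and 81.0 and 86.6 CPM in the IL-23 mix. Its log2 difference was -2.29 ± 0.07 (SE; adjusted p = 7.8e-08, edgeR quasi-likelihood, Benjamini-Hochberg). Both libraries of the IL-23 mix lay far below both of the TGF-β mix, and the genotypes lay close together. Mcm5 (chromosome 8, 75109569 to 75128439, plus strand) had 384 and 399 CPM against 91.2 and 89.8, a difference of -2.11 ± 0.07. Mcm3 had 571 and 556 CPM against 142 and 134, a difference of -2.03 ± 0.07. Mcm6 carried the smallest change of the 6, from 610 and 618 CPM to 195 and 198 (-1.64 ± 0.07). Mcm4 (-1.92) and Mcm7 (-1.84) lay between these, although up to 321 of the exon bases of Mcm7 are shared with a gene on the opposite strand.

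The licensing genes all fell, with a median of -1.55. Cdc6, an ATPase that recruits the helicase, went from 92.1 and 94.7 CPM to 25.1 and 25.3 (log2 difference -1.89), and Orc1, the largest subunit of the origin recognition complex, from 43.2 and 50.8 CPM to 13.4 and 12.4 (-1.86). Cdt1, the partner of Cdc6 in loading the helicase, fell less (-1.24), as did Orc6 (-0.99). The groups did not overlap for any of these genes.

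Genes that switch the loaded helicase on ranged more widely, with a median of -1.77. Gins1, a subunit of the GINS complex, had the largest difference of the 40 genes, from 24.4 and 25.8 CPM to 4.61 and 5.60 CPM (-2.30 ± 0.13, SE). The values for the IL-23 mix rest on 70 counts in the control library (54.6 to 88.4 as the 95% Poisson interval) and 86 in the knockout library (68.8 to 106), intervals that cover counting error only. The other subunits fell by unequal amounts, Gins3 by 1.70, Gins2 by 0.88 and Gins4 by 0.74 on the log2 scale. Of the 4097 exon bases of Gins2, 2758 overlap the opposite-strand gene Gse1, so that reads of these genes may be mixed where strand was not used in counting. Mcm10 fell by 1.89 and Cdc45, which joins GINS on the helicase, by 1.83.

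Of the polymerase α-primase complex, Pola1, the catalytic subunit, fell from 77.5 CPM in both TGF-β libraries to 19.0 and 20.7 CPM (-1.97 ± 0.09, SE). Prim1, the catalytic primase subunit, fell by 1.47 and Pola2 by 1.28 on the log2 scale. Prim2, the large primase subunit, was the exception. It measured 55.4 and 58.5 CPM in the TGF-β mix and 56.8 and 58.5 CPM in the IL-23 mix, a log2 difference of 0.02 ± 0.08 (adjusted p = 0.85, edgeR quasi-likelihood, Benjamini-Hochberg). The groups overlapped for this gene, while those of its partner Prim1 did not.

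All 5 genes of polymerases δ and ε fell, with a median of -1.40. Pole, the catalytic subunit of the leading-strand polymerase, had 124 and 125 CPM against 30.9 and 30.6, a log2 difference of -2.01 ± 0.08 (SE). The δ subunits Pold2 (-1.48), Pold1 (-1.40) and Pold3 (-1.25) and the small ε subunit Pole2 (-1.15) fell also. The libraries of the mixes did not overlap for any of the 5, and the subunits were not tested against each other.

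The clamp and its loader held the member that went against the rest. Pcna, the sliding clamp, fell from 364 and 363 CPM to 148 and 141 (-1.33 ± 0.07, SE). Among the 5 loader genes, Rfc4 (-1.21), Rfc5 (-1.08), Rfc1 (-0.60) and Rfc2 (-0.35) fell, Rfc2 with the smallest change of the 38. Rfc3 (chromosome 5, 151642756 to 151651242, minus strand) rose from 57.0 and 56.2 CPM in the TGF-β mix to 154 and 138 CPM in the IL-23 mix. Its log2 difference was 1.37 ± 0.08 (adjusted p = 1.2e-06, edgeR quasi-likelihood, Benjamini-Hochberg), and the groups did not overlap. No other annotated gene shares its exon bases, and its promoter window holds 2 E2F words, as do those of the falling genes Mcm3, Mcm5 and Mcm7.

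Genes for single-strand binding and for joining of lagging-strand fragments fell, with a median of -1.79. Lig1, the replicative DNA ligase, went from 218 and 213 CPM to 60.8 and 59.8 (-1.84), and Rpa2, a subunit of the single-strand binding protein RPA, from 67.4 and 74.2 CPM to 22.1 and 20.0 (-1.75). Its partner Rpa1 fell by 1.28. Fen1, the flap nuclease, fell by 1.84 from low values, 8.10 and 8.09 CPM to 2.30 and 2.21 CPM. For Fen1, 1909 of 2422 exon bases overlap genes on the opposite strand, and its counts are therefore uncertain.

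Among genes for nucleotide supply, Rrm2, the regulatory subunit of ribonucleotide reductase, fell from 342 and 323 CPM to 84.7 and 80.1 (-2.01 ± 0.07, SE), and Rrm1, the catalytic subunit, by 1.80. Tk1, the salvage enzyme thymidine kinase, fell by 0.77, from 33.7 and 32.1 CPM to 16.4 in control and 22.3 in knockout. Ccne2, a cyclin of the transition from G1 to S phase, fell from 106 and 108 CPM to 26.6 and 29.1 (-1.94 ± 0.08). Uhrf1, which guides DNA methylation to newly copied DNA, fell by 1.54. The groups of these 5 genes did not overlap, and Tk1 was the one whose genotypes stood furthest apart in the IL-23 mix.

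**Figure D2:**
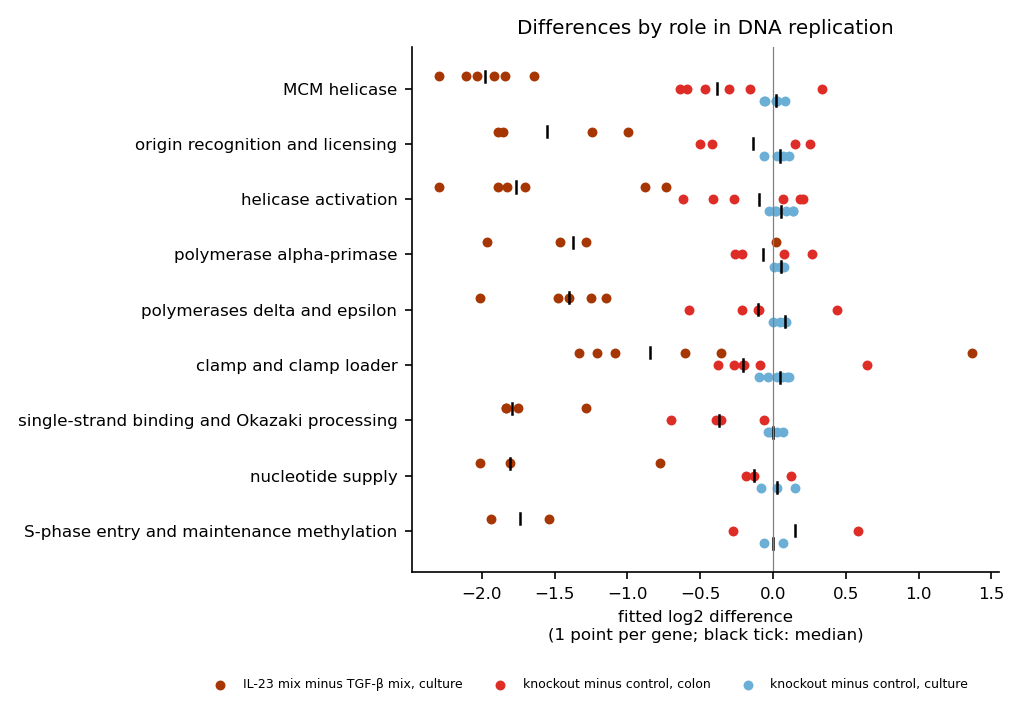
Fitted log2 differences of the 40 genes by role, 1 point per gene, with a black tick at the median of each role, for the cytokine mix in culture and for genotype in colon and culture. The mix values lie between -2.30 and 1.37, the culture genotype values between -0.10 and 0.15, and the colon genotype values between -0.70 and 0.65.

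The rest of the pathway moved with them. Of 42 other replication genes, 36 fell, 3 rose and 3 did not pass. Hells, a chromatin remodeller of replicating cells, fell from 245 and 251 CPM to 53.1 and 60.0, and the checkpoint gene Clspn (-1.93) and the maintenance methyltransferase gene Dnmt1 (-1.51) fell also. Pold4, the smallest polymerase δ subunit, rose from 15.1 and 17.7 CPM to 111 and 105 CPM, a log2 difference of 2.73 ± 0.10 (SE). Pold4 thus went the other way from the δ subunits Pold1, Pold2 and Pold3.

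All 20 mitosis genes fell, with a median of -1.54. Ccna2, a cyclin of S and G2 phases, fell by 1.99 on the log2 scale, and the checkpoint gene Bub1b (-1.82), Cdc20 (-1.77) and the spindle motor gene Kif11 (-1.69) fell also. Of 26 tested regulators of cell cycle entry, 17 fell and 6 rose. The repressor E2F genes E2f7 (34.5 and 31.6 against 4.94 and 4.36 CPM) and E2f8 (80.9 and 74.5 against 18.0 and 19.0 CPM) were among those that fell. The inhibitors of cyclin-dependent kinases Cdkn1a (176 and 182 against 591 and 561 CPM) and Cdkn2d (20.5 and 19.4 against 71.5 and 63.1 CPM) rose. Direction therefore differed within this list, while it was the same for all mitosis genes.

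The T cell markers summed to 8333 to 8810 CPM of library totals in the 4 cultures. Single markers differed between the mixes, with log2 differences from -1.23 to 1.25. In the IL-23 mix 6 of 16 were called higher and 8 lower, where 35.8% of all genes were called higher and 34.0% lower. The list of fibroblast markers summed to 2.09 and 2.39 CPM in the TGF-β mix and 445 and 412 in the IL-23 mix, nearly all of it from Lum (6407 and 5938 counts) and Dcn (341 and 342 counts), while Col3a1 and Mmp2 had 0 counts in all 4 libraries. Macrophage markers went from 2.28 and 2.57 CPM to 34.8 and 33.3, with C1qa, C1qb, C1qc and Lyz2 at 0 in all 4, and dendritic cell markers from 51.3 and 40.8 to 310 and 289. The last sum was carried by H2-Ab1 (369 and 271 against 2963 and 2753 counts) and Cd74 (371 and 305 against 1674 and 1579), while H2-Aa went from 13 and 15 counts to 3 and 1, and Itgax had 3 counts or fewer in each library. Their part in the result was not tested.

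Knockout of Rora was not followed by a detectable change of any of the 40 genes in culture. By edgeR's quasi-likelihood test and Benjamini-Hochberg adjustment 0 of 40 passed, and DESeq2 also called 0. Only 4 of 13983 genes passed at all, or 0.0286%. An unadjusted p under 0.05 was found for 0 of the 40 and for 500 of all 13983 genes, so that count says little about the 40. The median log2 difference of the 40 genes was 0.03, and their fitted values ran from -0.10 to 0.15 with 30 above 0 and 10 below.

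The lowest unadjusted p-values, which started at 0.17, belonged to Gins2 (log2 difference 0.14 ± 0.09, SE), Rfc3 (-0.10 ± 0.07), Rrm2 (-0.08 ± 0.07) and Tk1 (0.15 ± 0.13). Gins2 measured 33.1 CPM in control and 37.4 in knockout with the TGF-β mix, and 18.6 and 19.8 with the IL-23 mix. Within single pairs, the log2 ratio of knockout to control ran from -0.08 to 0.23 with the TGF-β mix and from -0.19 to 0.44 with the IL-23 mix. None of the 40 reached 2-fold in either pair, where 0.157% and 0.207% of all genes did. The upper ends were Orc1 with the TGF-β mix (43.2 and 50.8 CPM) and Tk1 with the IL-23 mix (16.4 and 22.3 CPM). Tk1 had 249 counts in the control library (219 to 282 as the 95% Poisson interval) and 342 in the knockout library (307 to 380), and the TGF-β pair went the other way with 533 and 512 counts. None of the tested genes of the other replication, cell cycle entry and mitosis lists was called for genotype in culture.

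**Figure D3:**
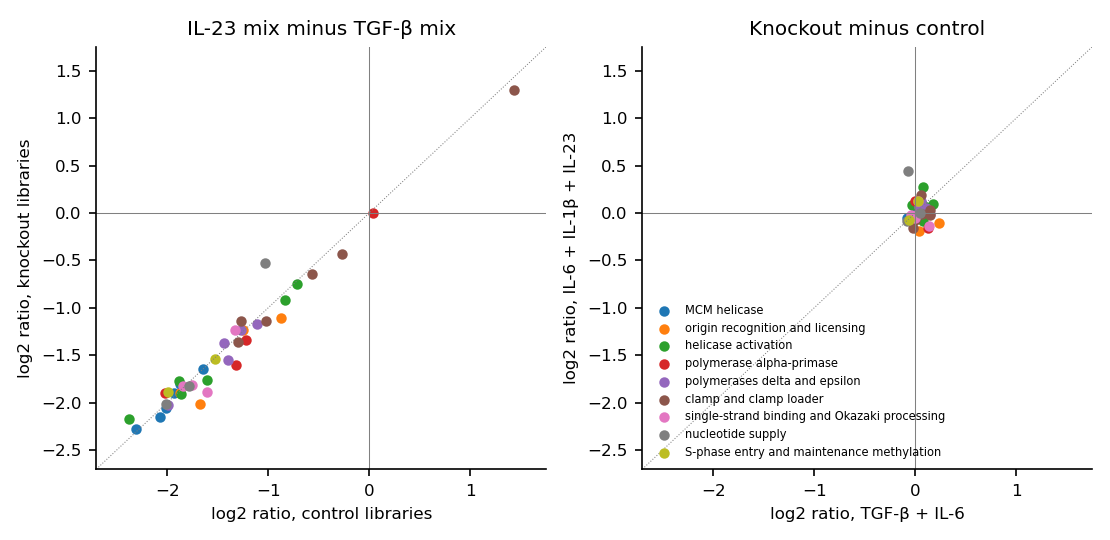
Log2 ratios of single libraries for the 40 genes, coloured by role. On the left, the mix ratio of the control pair (x axis) is set against that of the knockout pair (y axis), and 38 of 40 points lie at negative values on both axes; on the right, the genotype ratio in the TGF-β mix (x axis) is set against that in the IL-23 mix (y axis), and all points lie between -0.19 and 0.44. The ratios on the left share no library, nor do those on the right.

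In the colon, the knockout libraries had less RNA for 12 of the 40 genes and more for 2, and 26 did not pass (edgeR quasi-likelihood, adjusted p under 0.05 over 13101 genes). Of all genes tested, 19.9% were called lower and 19.6% higher. The median log2 difference of the 40 was -0.20, against 0.01 for all genes. The differences were small beside those of the cytokine mix, and the 14 called genes ran from -0.64 to 0.65 on the log2 scale. Groups without overlap were also seen among genes that did not pass, such as Mcm4, Orc6, Gins4 and Pold1. A lack of overlap therefore does not set the called genes apart.

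The counts in the colon hung on the scaling. With library totals in place of TMM factors, 5 of the 40 genes were called lower and 4 higher, and their median was -0.01, while the median of all genes moved to 0.21. Of all 13101 genes, 1262 were called lower and 4284 higher on that scale. With the summed T cell markers as library size, 2 were called lower (Mcm2 and Mcm5) and 11 higher, with medians of 0.15 for the 40 genes and 0.37 for all genes. Of all 13101 genes, 629 were then called lower and 6057 higher, so the counts in either direction are no result about the 40 genes as a set. The 11 were Mcm6, Rfc1, Orc6, Gins3, Prim1, Pold3, Pcna, Rpa1, Rrm1, Tk1 and Ccne2. The share of all calls that were higher was 49.6% with TMM, 77.2% with library totals and 90.6% with T cell markers. Summed over the 40 genes, the level on library totals was 1681 and 1610 CPM in control and 1590 and 1596 in knockout. With TMM factors the sums were 1799 and 1720 against 1492 and 1488 CPM. The direction held under all 3 scalings, with a call each time, for Mcm2 and Mcm5, which were lower, and for Mcm6 and Rfc1, which were higher. Both other scales moved the values of all genes upward, so Mcm6 and Rfc1 could hardly lose their direction. For these 2 genes the scales were no check, while for Mcm2 and Mcm5 they were. DESeq2 called 9 of the 40 lower and 2 higher, and Mcm7, Cdc45 and Uhrf1 lost their calls there. Of all 13101 genes it called 2024 lower and 1634 higher.

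**Figure D4:**
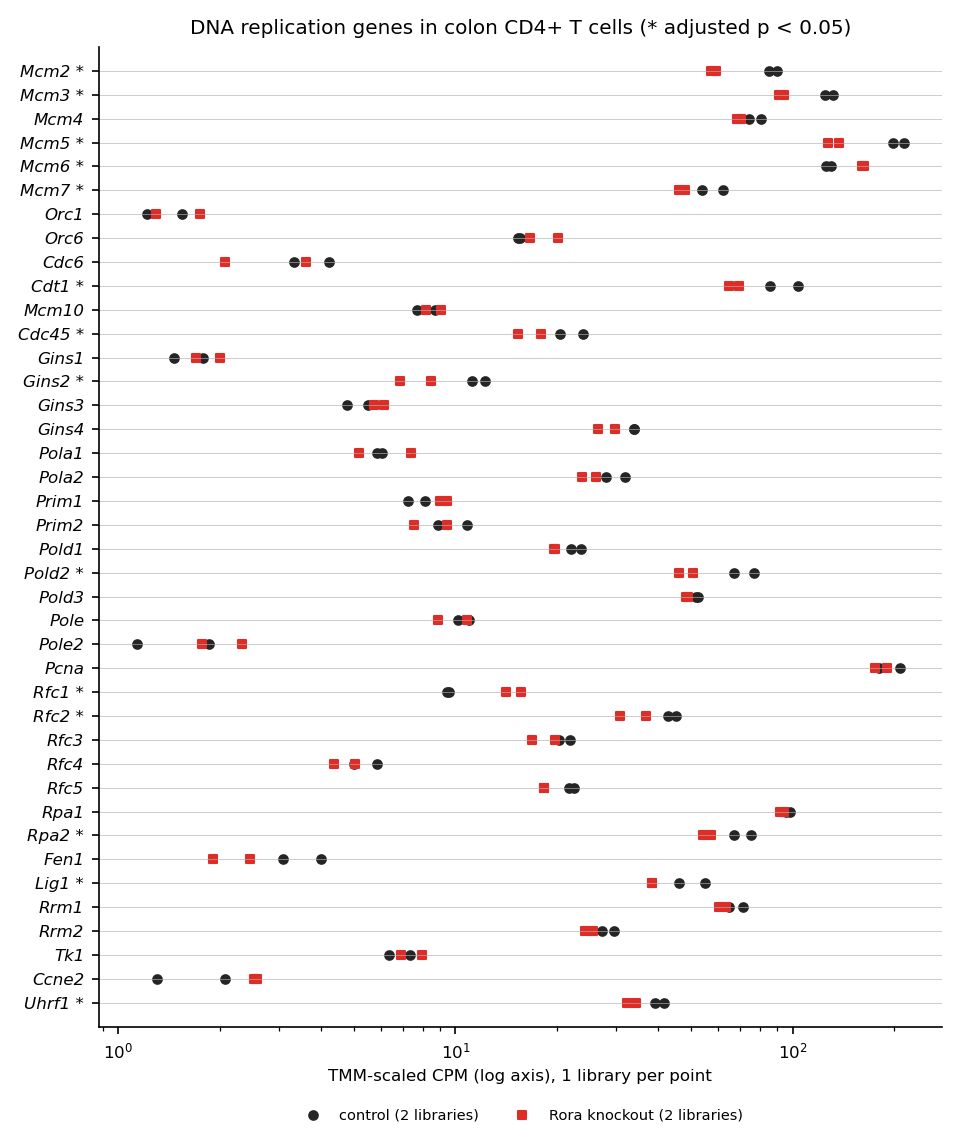
TMM-scaled CPM (log axis) of the 40 genes in the 4 colon libraries, 1 point per library, with an asterisk on the 14 genes that passed. The control points of Mcm5 (214 and 198 CPM) lie to the right of the knockout points (137 and 127 CPM), and those of Rfc1 (9.58 and 9.42 CPM) to the left of the knockout points (14.2 and 15.6 CPM).

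Within the MCM helicase, subunits went in both directions. Mcm5 measured 214 and 198 CPM in control and 137 and 127 CPM in knockout, a log2 difference of -0.64 ± 0.08 (SE; adjusted p = 0.00014, edgeR quasi-likelihood, Benjamini-Hochberg). Mcm2 had 89.7 and 85.3 CPM against 59.2 and 57.2 (-0.59 ± 0.08), and Mcm3 had 132 and 125 CPM against 91.4 and 94.3 (-0.46 ± 0.08). In each of the 3 genes both knockout libraries lay below both controls. Mcm6 (chromosome 1, 128331590 to 128359664, minus strand) had 130 and 125 CPM in control and 161 and 163 in knockout, a rise of 0.34 ± 0.08 (adjusted p = 0.0049 in the same test). Mcm7 had 62.1 and 53.8 CPM against 47.9 and 46.0 (-0.30 ± 0.10). Mcm4 had 80.8 and 74.4 CPM against 68.4 and 70.5 and did not pass. The subunits form 1 ring in the protein, and their RNA thus did not move as a unit in these libraries.

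With library totals Mcm5 remained at -0.45, Mcm2 at -0.39 and Mcm3 at -0.27, all 3 called, while Mcm7 went to -0.11 and did not pass (adjusted p = 0.39, edgeR quasi-likelihood, Benjamini-Hochberg). With T cell markers as the scale Mcm5 stood at -0.28, Mcm2 at -0.23, Mcm3 at -0.11 and Mcm7 at 0.05, the last 2 no longer called. Mcm6 rose to 0.53 and 0.69 under these scales. Mcm7 also lost its call without control replicate 1 and without knockout replicate 2.

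Of the licensing genes Cdt1 was called, with 85.8 and 104 CPM in control and 64.7 and 69.4 in knockout (-0.50 ± 0.10, SE), and with T cell markers as the scale it was no longer called (-0.14). The groups of Cdt1 did not overlap, nor did those of Orc6. Orc1 (1.54 and 1.21 CPM against 1.29 and 1.74) and Cdc6 (3.33 and 4.21 CPM against 3.61 and 2.07) overlapped between genotypes at low values. Orc6, with 15.5 and 15.3 CPM against 16.6 and 20.1, did not pass with TMM and was called higher with library totals (0.45) and with T cell markers (0.61).

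Among helicase activators Cdc45 had 23.9 and 20.4 CPM in control and 15.3 and 18.0 in knockout (-0.41 ± 0.13, SE), and Gins2 had 12.3 and 11.2 CPM against 8.44 and 6.85 (-0.62 ± 0.16). The groups did not overlap for either gene, and neither passed with library totals (-0.22 and -0.43) or with T cell markers (-0.05 and -0.26). Here too, reads of Gins2 may be mixed with those of the opposite-strand gene Gse1, which overlaps 2758 of its 4097 exon bases. Cdc45 also failed without control replicate 1 and without knockout replicate 1, and Gins2 without knockout replicate 2. Mcm10, Gins1, Gins3 and Gins4 did not pass, although Gins3 was called higher with T cell markers (0.56). Of polymerase α-primase none of the 4 genes passed with TMM, with fitted values from -0.26 (Pola2) to 0.27 (Prim1). Prim1 was called higher with library totals (0.46) and with T cell markers (0.62).

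Pold2, a structural subunit of polymerase δ, had 67.2 and 77.1 CPM in control and 50.7 and 46.2 in knockout (-0.58 ± 0.10, SE). Both knockout libraries lay below both controls, and the gene was called with library totals (-0.38) but not with T cell markers (-0.22). The other subunits of polymerases δ and ε did not pass with TMM, and Pold3 was called higher with T cell markers (0.26). Of the clamp loader Rfc1, the large subunit (chromosome 5, 65261850 to 65335670, minus strand), rose from 9.58 and 9.42 CPM to 14.2 and 15.6 (0.65 ± 0.14, adjusted p = 0.0037, edgeR quasi-likelihood, Benjamini-Hochberg). Rfc2 went the other way, with 42.8 and 45.2 CPM against 30.8 and 36.7 (-0.38 ± 0.11). It lost its call with library totals (-0.19), with T cell markers (-0.03) and without knockout replicate 1, and 952 of its exon bases overlap the opposite-strand gene Lat2. Pcna, with 209 and 181 CPM against 190 and 176, did not pass with TMM and overlapped between genotypes, and it was called higher with T cell markers (0.27).

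Rpa2 had 75.3 and 67.2 CPM in control and 57.2 and 54.2 in knockout (-0.35 ± 0.09, SE), and Lig1 had 54.8 and 46.0 CPM against 38.4 and 38.2 (-0.39 ± 0.10). Uhrf1 had 39.1 and 41.6 CPM against 34.2 and 32.4 (-0.28 ± 0.10). In all 3 the groups did not overlap, which was also so for Rpa1. With library totals they stood at -0.16, -0.20 and -0.08 and with T cell markers at 0.0024, -0.04 and 0.08, and none passed under either. Without control replicate 1 both Rpa2 and Lig1 lost their calls, and without control replicate 2 or knockout replicate 2 Uhrf1 did. With TMM none of the 3 nucleotide supply genes passed, nor did Rpa1 or Ccne2 (1.30 and 2.07 CPM against 2.52 and 2.58), which rests on 16 to 40 counts per library. With T cell markers as the scale Tk1 (0.48), Rrm1 (0.23), Rpa1 (0.29) and Ccne2 (0.93) were called higher.

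**Figure D5:**
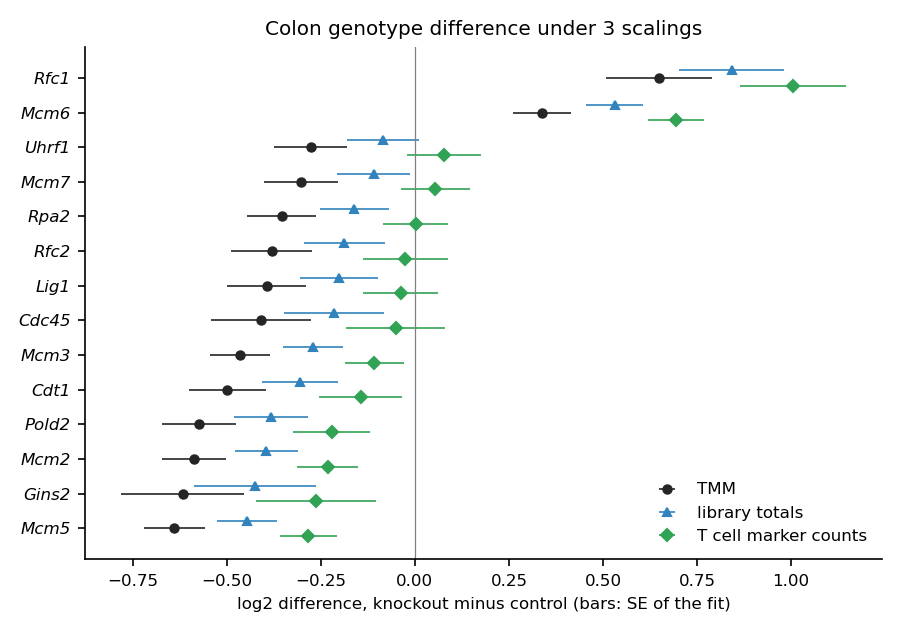
Log2 difference between knockout and control colon libraries for the 14 called genes, with the SE of the fit as bars, under TMM, library totals and T cell marker counts as library size. Mcm5 stands at -0.64, -0.45 and -0.28 and Rfc1 at 0.65, 0.84 and 1.005, while Mcm7 (0.05), Rpa2 (0.0024) and Uhrf1 (0.08) lie above 0 under the last scale.

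Of 42 other replication genes, 10 rose, 7 fell and 25 did not pass in the colon, where 19.6% of all genes were called higher and 19.9% lower. These counts lie near the shares of all genes and are no result about the list. Top1, a topoisomerase gene, rose from 203 and 208 CPM to 316 and 285, and Dbf4, the activator of the kinase that fires origins, from 13.9 and 14.4 to 20.1 and 24.5. Rnaseh2c, a subunit of the nuclease that removes RNA from DNA, fell from 28.4 and 30.8 CPM to 21.2 and 18.5, and the checkpoint gene Topbp1 rose by 0.43.

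Of 20 mitosis genes 5 rose, none fell and 15 did not pass, beside the same shares of all genes, and 13 fitted values lay above 0 and 7 below. Mki67, the proliferation marker, had 23.1 and 21.9 CPM against 35.9 and 38.7, Kif11 had 11.8 and 15.1 against 22.1 and 23.4, and Nusap1 and Cenpe, a spindle and a centromere gene, each rose by 1.12 on the log2 scale. Of 27 tested regulators of cell cycle entry, 11 fell and 3 rose. The surrounding lists were counted with TMM only, and the other scales moved the median of all genes upward (to 0.21 and 0.37). Myc, a driver of growth, fell from 1177 and 1204 CPM to 739 and 731, Cdkn1a from 834 and 872 to 548 and 540, and Cdkn2d from 36.0 and 33.8 to 21.1 and 19.2. Ccnd2, a cyclin of G1 phase, rose from 329 and 306 CPM to 509 and 449.

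The difference between the genotype effect in the colon and that in culture was tested itself, in a model of all 8 libraries over 14886 genes. It was called negative for 7 of the 40 genes and positive for Rfc1, where 9.57% of all genes were called negative and 7.73% positive. The 7 were Gins2 (-0.76 ± 0.19, SE), Mcm2 (-0.67 ± 0.11), Mcm5 (-0.66 ± 0.11), Pold2 (-0.66 ± 0.13), Cdt1 (-0.58 ± 0.14), Rfc2 (-0.45 ± 0.14) and Mcm3 (-0.41 ± 0.11). For Rfc1 the value was 0.62 ± 0.15. Rfc2 had the highest adjusted p of the 8, 0.041 (edgeR quasi-likelihood, Benjamini-Hochberg). The median of the 40 was -0.19 with TMM and 0.00 with library totals. With library totals 4 were negative and 3 positive, where 566 of all 14886 genes were negative and 2266 positive. Mcm3 (-0.22), Cdt1 (-0.38) and Rfc2 (-0.26) were no longer called there. With T cell markers as the scale 2 were negative and 5 positive, where 289 of all genes were negative and 3511 positive. Mcm3 (-0.08), Cdt1 (-0.25), Gins2 (-0.43), Pold2 (-0.33) and Rfc2 (-0.12) were no longer called on that scale. Mcm2, Mcm5 and Rfc1 were called under all 3 scalings. Both other scales moved the median of all genes upward (to 0.20 and 0.34), which could hardly turn the positive value of Rfc1. Without knockout replicate 2 Rfc1 narrowly missed (adjusted p = 0.051, same test). Calls also ended for Mcm3 without control replicate 1, for Gins2 without knockout replicate 2, and for Rfc2 without control replicate 2, without knockout replicate 1 and in DESeq2. The remaining 32 genes were not shown to differ between settings.

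Compared between settings in control cells, the 40 genes were mostly lower in the colon than in the mean of the 2 cultures. Of the 40, 31 were lower, 4 higher and 5 did not pass, where 36.7% of all genes were called lower and 37.9% higher (edgeR quasi-likelihood, Benjamini-Hochberg). The median was -1.19, and -1.56 with library totals, a scale that moved the median of all genes to -0.39. Cell source, annotation and file batch changed together here and cannot be told apart. Of the 16 T cell markers 14 were higher and 2 lower in the colon, and all 20 mitosis genes were lower.

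Levels between genes are given per exon length, as RPKM, which are read counts divided by the exon length and by the library size, with TMM factors over all 8 libraries. The largest gap between settings was in Ccne2, at 0.411 and 0.657 RPKM in the colon controls and 27.7 (TGF-β mix) and 6.98 (IL-23 mix) in the culture controls, a fitted log2 difference of -4.68 ± 0.16 (SE). Orc1 followed with 0.490 and 0.387 RPKM against 11.3 and 3.54 (-3.84), and Cdc6 with 0.704 and 0.893 against 16.1 and 4.41 (-3.39). In these 3 genes the colon controls lay below both cultures. Not all genes called lower did so, since the comparison is with the mean of the cultures. Mcm2 had 14.2 and 13.6 RPKM in the colon against 52.8 and 10.7 in culture, and Mcm3 had 38.8 and 36.9 against 139 and 34.6. The 4 genes called higher in the colon were Rpa2 (1.17), Cdt1 (0.98), Pold2 (0.62) and Mcm5 (0.41). Cdt1 had 30.2 and 36.6 RPKM in the colon against 26.1 and 11.0 in culture, and Mcm5 had 59.1 and 55.1 against 87.9 and 21.0. The colon value of Mcm5 therefore lay between the cultures, and its call ended with library totals (0.04, adjusted p = 0.64). Gins4, Pcna, Rfc2, Rpa1 and Fen1 did not pass.

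By level, Pcna was the highest of the 40 genes in 7 of 8 libraries, at 80.9 to 96.2 RPKM in the colon and 53.7 to 139 in culture. In the control library of the TGF-β mix Mcm3 and Pcna both stood at 139 RPKM. The median over the 40 genes was 6.83 and 6.35 RPKM in the colon controls, 5.11 and 5.41 in the colon knockouts, 20.1 and 21.6 in the TGF-β mix and 8.47 and 8.81 in the IL-23 mix, control first. The lowest levels in the colon were those of Ccne2, Orc1 and Cdc6, at 0.387 to 0.436 RPKM. In culture Fen1 was lowest, at 3.06 RPKM in both libraries of the TGF-β mix and 0.873 and 0.836 in the IL-23 mix. Pseudogene copies of Pcna are annotated, so that its counts may be shared with them.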

How the data were processed

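Each of the 8 deposited files gave whole-number read counts per gene that were not normalized, per the file headers. Per the submitters' processing notes, Trim Galore, Bowtie2, featureCounts, edgeR and DESeq2 were used with build mm10. Their versions, roles, annotation and strand setting are not given in the sources used here. Colon and culture files used different annotations (54446 and 55341 entries) and were joined by symbol, leaving out symbols turned into dates (at most 0.269% of counts). Coordinates and exon lengths are from GENCODE M21.

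Genes were tested with edgeR 4.0.16 in R 4.3.3 by quasi-likelihood F-tests across all genes after filterByExpr and TMM, with Benjamini-Hochberg adjustment at 0.05. The colon was fitted alone (2 against 2 libraries, 2 residual degrees of freedom). The culture was fitted with terms for mix and genotype (1 residual degree of freedom), and differences between settings over all 8 libraries (3 residual degrees of freedom). SE is the absolute log2 difference before edgeR's shrinkage by a prior count, divided by the square root of F. The printed log2 differences are those after shrinkage. Single-library log2 ratios used a prior count of 2 and were counted at 2-fold where either library reached 5 CPM. CPM is scaled within a setting. The scripts were tested on simulated data. Alternatives were library totals, DESeq2 1.42.0, no filter, T cell markers as library size, a replicate block, leaving out each colon library and a joint fit. Replicates were distinct (chi-square per gene of 7.57 in control and 5.51 in knockout).

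The 40 genes, the 3 surrounding lists (other replication, cell cycle entry, mitosis) and the cell markers were chosen with earlier results of these data known. Values in every library were given for genes called in the colon, the 8 largest mix differences and the 4 lowest culture genotype p-values, and in each surrounding list the 4 genes with the lowest p were named. Other genes among the 40 were named with values to complete their role.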

Additional observations from a re-analysis of the deposited data

Results flagged for a closer look

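For 8 of the 40 genes the knockout effect in the colon differed from that in culture by a test of the difference itself, and each is listed with its log2 value (colon effect minus culture effect) from edgeR's quasi-likelihood test over all 8 libraries. In that test 2575 of all 14886 genes were called, 9.57% negative and 7.73% positive. The count of 8 lies near that share and is no result about the 40 genes as a set. Negative values were found for the helicase genes Mcm2 (-0.67), Mcm5 (-0.66) and Mcm3 (-0.41), the helicase loader gene Cdt1 (-0.58), the helicase activator gene Gins2 (-0.76), the polymerase δ gene Pold2 (-0.66) and the clamp loader gene Rfc2 (-0.45). The clamp loader gene Rfc1 had a positive value (0.62). Genes on the opposite strand overlap 2758 of the exon bases of Gins2 and 952 of those of Rfc2. Reads of these genes may be mixed where strand was not used in counting. Mcm2, Mcm5 and Rfc1 were also called with library totals and with T cell markers as the scale, Gins2 and Pold2 only with library totals, and Mcm3, Cdt1 and Rfc2 with neither. In each of the 8 the fitted culture effect was small, from -0.06 for Mcm3 to 0.14 for Gins2, and none was called in culture. The colon knockout libraries also held more counts of B cell, epithelial and fibroblast markers, and the part of these in the differences was not tested.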

How the results depend on the processing

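The cytokine mix result gave 38 genes lower and 1 higher under each alternative run (library totals, DESeq2, no filter, joint fit), and 0 genes were called for culture genotype under each. In all genes, culture genotype calls were 4, and 9, 7, 0 and 15 with library totals, DESeq2, no filter and the joint fit. The colon result moved most with the scale. Library totals gave 4 higher, 5 lower and a median of -0.0103, where 4284 of all 13101 genes were higher and 1262 lower. T cell markers gave 11 higher, 2 lower and a median of 0.15, where 6057 of all genes were higher and 629 lower. Mcm7 (0.0541), Rpa2 (0.0024) and Uhrf1 (0.0773) were turned in sign with T cell markers. Leaving out 1 colon library gave medians of the replication genes from -0.24 to -0.15, and medians of all genes from -0.0047 to 0.0276. These fits leave 1 library in a colon group, so their counts of calls are not given here. With a replicate block, 15 were lower and 2 higher (median -0.20), adding Fen1, Pola2 and Gins4, where 3169 of all genes were lower and 3061 higher. Over 13101 genes, the difference of replicate 2 minus replicate 1 in the colon controls correlated at 0.15 with the same difference in the colon knockouts. The labels do not say that the numbers pair the samples. For the colon effect minus the culture effect, library totals gave 3 positive, 4 negative and a median of 0.0041. Of all 14886 genes, 2266 were positive and 566 negative there. T cell markers, chosen after seeing the data, gave 5 and 2 with a median of 0.14, where 3511 of all genes were positive and 289 negative. Leaving out 1 colon library gave medians of this difference from -0.20 to -0.17 for the replication genes and from -0.0073 to 0.0292 for all genes. For colon minus culture controls the median was -1.56 with library totals and -1.26 to -1.14 without 1 library. The cause of these shifts was not tested. At 14 to 59 counts per colon library, Orc1, Gins1, Pole2, Ccne2, Cdc6 and Fen1 allow only large differences to be seen.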
